A study of Mus musculus with 6 samples.

Results

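The genes examined were the receptors of the IL-17 cytokine family, their adaptor molecules, and the components of IL-23 and its receptor that were named with them. They were chosen by gene symbol from a list of 10 names, of which 9 were among the 17419 genes of the deposited table. The tenth name, Act1, is an older name of Traf3ip2, which was present under its own symbol. RNA had been sequenced from fibroblasts isolated from the tendon enthesis, where tendon joins bone, of diseased (3 samples) and un-diseased (3 samples) SKG mice. This strain has a mutant Zap70, a T cell kinase gene, and is prone to autoimmune arthritis, so the diseased and the un-diseased animals share this strain and its mutation. The sample titles call the diseased fibroblasts NTS and the un-diseased ones UN without spelling these out. The animals' age, how disease was brought about, whether animals were pooled and whether each sample is its own animal or culture are not given in the sources used here. The p-values therefore reflect the spread of these samples alone, and that spread may be technical.

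IL-17A and IL-17F signal through a receptor built from the shared subunit IL-17RA and the partner IL-17RC, and the adaptor Act1, the product of Traf3ip2, carries the signal to TRAF proteins, NF-kB and the machinery that stabilises cytokine mRNAs. IL-17RA also pairs with IL-17RB to bind IL-25 and with IL-17RE to bind IL-17C. IL-23, made of the p19 chain encoded by Il23a and the p40 chain encoded by Il12b, acts mainly on lymphocytes through IL-12Rβ1 and IL-23R and sustains their IL-17 production. The axis is known for its part in inflammation of the enthesis, and fibroblasts are known as cells that respond to IL-17.

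Total counts were 16720612 to 18290873 per sample, so 3 counts, the limit that a count of 0 allows, were worth 0.147 to 0.188 CPM (the unit of abundance used throughout, counts scaled to a common library size), for counting error only. The fibroblast genes Col1a1, Col1a2, Col3a1, Pdgfra, Pdgfrb, Dcn, Lum and Thy1 together held 81505 to 114949 CPM in diseased and 60549 to 86778 CPM in un-diseased samples, which fits the labelled cell type. Leukocyte RNA was also present. The 12 macrophage and monocyte markers summed to 300.4, 450.5 and 164.6 CPM in diseased replicates 1, 2 and 3, against 97.8, 216.7 and 37.9 CPM in the un-diseased ones, and Fcgr1 was at 0 in un-diseased replicate 3. All 11 of them that were tested had a positive fold change. The 10 T cell markers summed to 5.92 to 15.6 CPM in diseased and 5.84 to 16 CPM in un-diseased samples, and the 8 neutrophil markers to 52.4 to 138.8 CPM and 4.46 to 120.3 CPM. These are bulk samples, in which fewer cells of a type and less RNA per cell cannot be told apart.

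Il17ra had the highest mean level of the 9 genes, the other parts of the IL-17A receptor pathway were at intermediate levels, and Il23a, Il12rb1, Il17rb and Il17re were at or below 0.934 CPM in every sample. Per kilobase of exon and averaged over the 6 samples, the level was 21.1 CPM for Il17ra, 9.84 for Il17rc, 6.1 for Traf3ip2, 1.92 for Il17rd and 1.63 for Traf5. It was 0.297 for Il23a, 0.195 for Il12rb1, 0.0637 for Il17rb and 0.0333 for Il17re. The sample ranges of these neighbours in the order overlapped for Il17ra and Il17rc, for Il17rd and Traf5, for Il23a and Il12rb1, and for Il17rb and Il17re. Those of Il17rc and Traf3ip2, of Traf3ip2 and Il17rd, of Traf5 and Il23a, and of Il12rb1 and Il17rb did not. The order was the same per kilobase of coding sequence, but there Il17rd, which has long untranslated exons, stood at 9.16 CPM, close to Traf3ip2 at 10.5, and Il17ra at 63.1. The gene models behind the deposited counts are not given in the sources used here, so levels per length are approximate.

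**Figure D1:**
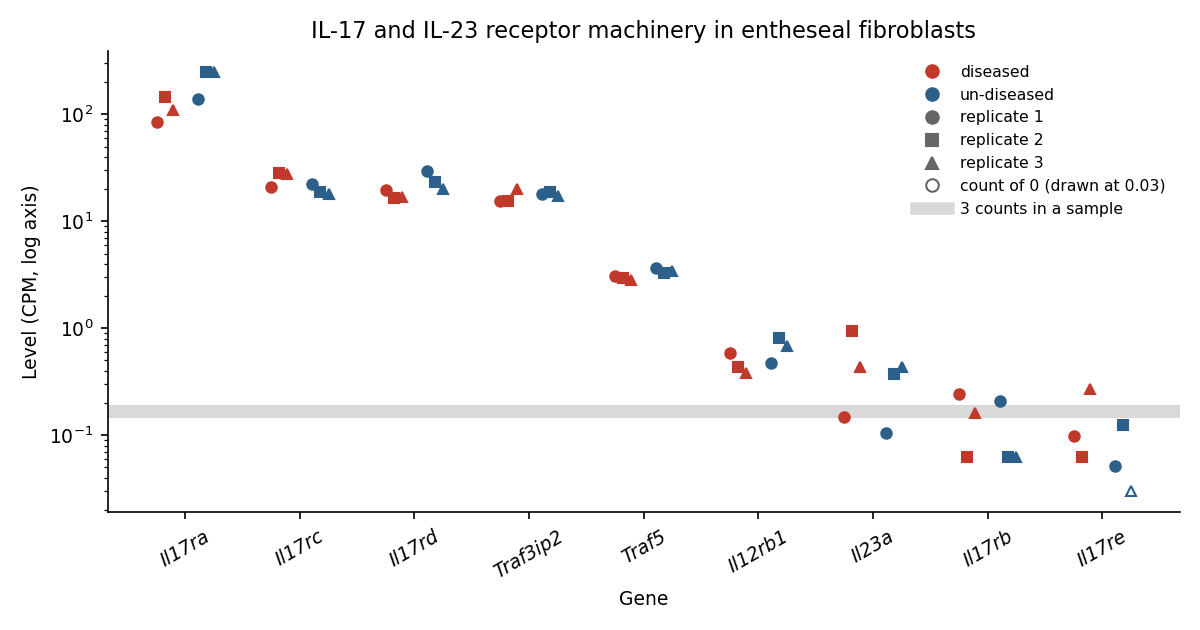
Level of each of the 9 genes in CPM on a log axis, with the diseased samples (red) left of the un-diseased ones (blue) and a marker shape per replicate number; the grey band is the worth of 3 counts. Il17ra lies between 85.6 and 251.1 CPM, and Il17rb and Il17re lie at or below 0.27 CPM.

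Of the 9 genes, 6 passed the filter on low counts (Il17ra, Il17rc, Il17rd, Traf3ip2, Traf5 and Il12rb1), and Il17rb, Il17re and Il23a did not. By edgeR's quasi-likelihood test, 0 of these 6 had an adjusted p below 0.05, where 3.73% of all 13264 tested genes did. Without adjustment 3 of the 6, Il17ra, Il17rc and Il17rd, had a p below 0.05, against 27.8% of all tested genes. DESeq2 called 1 of the 6, Il17ra as lower, where it called 11.4% of all tested genes, 4.79% as higher and 6.65% as lower, and limma-voom called 0. Samples that share a replicate number deviated together from their group means, though the labels do not say that they are paired. With the replicate number as a block 2 of the 6 were called, both lower in diseased samples, where 23.9% of all tested genes were called and 13.3% were called lower. The median log2 fold change of the 6 was -0.33, against 0.02 over all tested genes.

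Il17ra, the subunit shared by the IL-17 receptors (gene 16172, GRCm38 chromosome 6, 120463181 to 120483731), was lower in diseased fibroblasts once same-numbered samples were compared. Diseased replicates 1, 2 and 3 had 85.6, 146.3 and 110.5 CPM, against 139.3, 248.5 and 251.1 CPM in the un-diseased ones. The groups overlapped, because diseased replicate 2 lay above un-diseased replicate 1, but within each of the 3 same-numbered pairs the diseased sample was the lower, by log2 differences of -0.70, -0.76 and -1.18. The means were 114.1 ± 30.5 CPM in diseased and 213.0 ± 63.8 CPM in un-diseased fibroblasts (n = 3 each, SD). The log2 fold change of -0.90 (SE 0.27, 95% interval -1.54 to -0.26) did not pass (adjusted p = 0.103 by edgeR). With the replicate block it passed at -0.88 (SE 0.12, adjusted p = 0.00321), as it did in that fit with any 1 pair left out (adjusted p 0.0016 to 0.0262). The fits with a pair left out rest on fewer samples and were chosen after the data were seen. They called 1009 to 2569 of all tested genes. Without the block and without un-diseased replicate 1, Il17ra passed at -1.14 with an adjusted p of 0.0347 by edgeR. With any other single sample left out it did not pass without the block (adjusted p 0.0763 to 0.272). The authors' deposited table, which divides un-diseased by diseased, lists it at a log2 ratio of 0.91 and a q-value of 0.0195. The summed macrophage markers went the other way in every pair, and their part in the level of Il17ra was not tested.

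Il17rc, the partner that completes the receptor for IL-17A and IL-17F (gene 171095, chromosome 6, 113471455 to 113483163), was not called in either direction. It had 21.1, 28.1 and 27.6 CPM in diseased replicates 1, 2 and 3, against 22.2, 18.8 and 18.2 CPM in un-diseased replicates 1, 2 and 3. In pairs 2 and 3 the diseased sample was the higher, by log2 differences of 0.58 and 0.60, while pair 1 differed by -0.07. The log2 fold change was 0.38 (SE 0.15, 95% interval 0.03 to 0.72) (adjusted p = 0.153 by edgeR), and it did not pass with the replicate block (adjusted p = 0.105). In the blocked fit without replicate 1 of either group, which leaves out the pair that differed by -0.07, it passed at 0.58 (adjusted p = 0.0197). It did not pass in that fit without replicate 2 (0.27, adjusted p = 0.356) or without replicate 3 (0.25, adjusted p = 0.409).

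The balance of the 2 subunits within each sample was described by a ratio. The ratio of Il17ra to Il17rc, each in CPM per kilobase of exon, was 1.20, 1.55 and 1.19 in diseased replicates 1, 2 and 3, against 1.87, 3.93 and 4.11 in un-diseased replicates 1, 2 and 3. Every diseased sample had a lower ratio than every un-diseased one, and un-diseased replicate 1 lay nearest to the diseased samples. The means were 1.31 ± 0.20 in diseased and 3.30 ± 1.24 in un-diseased fibroblasts (n = 3 each, SD). The ratio was chosen after the values of both genes were seen, so its separation of the groups restates those values, and it was not tested. Of all tested genes taken singly, 31.9% had groups that did not overlap. The ratio of Il17ra to Il17rd overlapped, with 6.13, 12.47 and 9.24 in diseased and 6.72, 15.20 and 17.51 in un-diseased replicates 1, 2 and 3. That of Il17rc to Traf3ip2 did not overlap. The ratio of Il17ra to Il17rc does not depend on how the libraries were scaled, but its size depends on the gene lengths used. Per kilobase of coding sequence, averaged over the 6 samples, Il17ra stood at 63.1 CPM and Il17rc at 11.2.

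Il17rd, also known as Sef, is a receptor-like member of the family known to restrain FGF signalling (gene 171463, chromosome 14, 27038964 to 27107286). It had 19.8, 16.6 and 16.9 CPM in diseased and 29.4, 23.2 and 20.3 CPM in un-diseased replicates 1, 2 and 3. The diseased samples all lay below the un-diseased ones, as in 2 of the 6 tested members and 15.4% of all tested genes. The log2 fold change of -0.45 (SE 0.16) did not pass (adjusted p = 0.131 by edgeR). With the replicate block it passed at -0.44 (SE 0.11, adjusted p = 0.0266), but not in that fit with any 1 pair left out (0.0631 to 0.106).

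**Figure D2:**
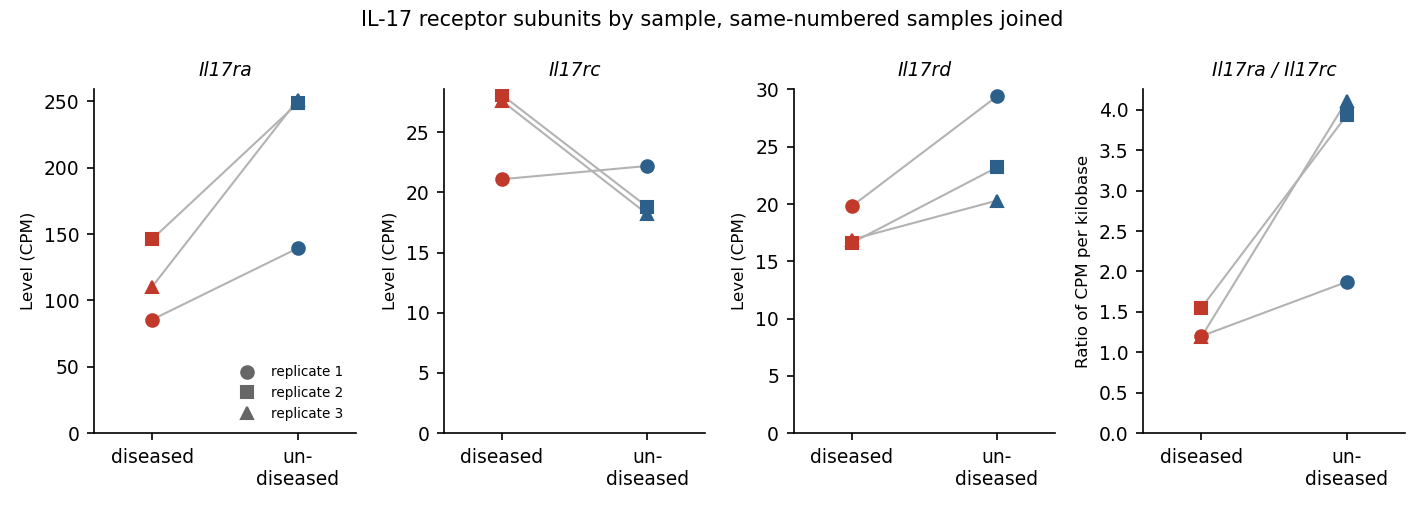
Levels of Il17ra, Il17rc and Il17rd in CPM, and the ratio of Il17ra to Il17rc per kilobase of exon, in diseased (left) and un-diseased (right) samples; lines join samples with the same replicate number and every axis starts at 0. Il17ra and Il17rd are lower in the diseased sample of every pair, and the ratio is at most 1.55 in diseased and at least 1.87 in un-diseased samples.

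The receptors with narrower known roles were barely detected. Il17rb, the IL-25 receptor chain, had 5, 1 and 3 counts in diseased replicates 1, 2 and 3, against 4, 1 and 1 in the un-diseased ones. Il17re, the IL-17C receptor chain known from epithelium, had 2, 1 and 5 counts in diseased replicates, against 1, 2 and 0 in the un-diseased ones. At this depth no difference was detectable for either gene: fitted without the filter, the adjusted p by edgeR was 0.753 for Il17rb and 0.5 for Il17re. Actr8 overlaps Il17rb on the opposite strand, and whether counting used the strand is not given in the sources used here, so its few counts cannot be assigned to it with certainty.

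Il17re and Il17rc are neighbours on the plus strand of chromosome 6, with 668 bases between the end of Il17re and the start of Il17rc in GENCODE M21. Their promoter windows are shown because these adjacent receptor genes ranked second and last of the 9 in level, at 9.84 CPM per kilobase for Il17rc and 0.0333 for Il17re. Each window is 300 bases in RefSeq's GRCm38.p6, plus strand, written 5′ to 3′ with CG dinucleotides in capitals. The Il17rc window is chr6:113471205-113471504 and the Il17re window is chr6:113458521-113458820.
Il17rc: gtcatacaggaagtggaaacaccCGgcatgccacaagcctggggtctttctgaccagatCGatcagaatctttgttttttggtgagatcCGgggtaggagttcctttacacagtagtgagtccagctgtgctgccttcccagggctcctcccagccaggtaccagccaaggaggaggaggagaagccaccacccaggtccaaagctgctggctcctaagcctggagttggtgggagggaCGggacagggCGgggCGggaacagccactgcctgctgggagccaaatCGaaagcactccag
Il17re: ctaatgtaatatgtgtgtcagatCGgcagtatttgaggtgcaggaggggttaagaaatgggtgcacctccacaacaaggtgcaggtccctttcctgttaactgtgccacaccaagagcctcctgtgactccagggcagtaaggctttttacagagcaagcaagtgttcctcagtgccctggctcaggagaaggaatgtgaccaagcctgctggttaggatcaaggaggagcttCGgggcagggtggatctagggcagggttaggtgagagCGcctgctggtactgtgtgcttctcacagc
The Il17rc window holds 7 CG dinucleotides, the median over the 32851 promoter windows of the table, and the Il17re window holds 3, a number that 76.7% of windows reach. Of the 5 genes with a window in the table, the barely detected Il17rb has the most CG dinucleotides, 32, which 9.52% of windows reach. Il17rd has 19 and Traf5 has 17.

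The adaptors did not differ detectably. Traf3ip2, which encodes Act1 (gene 103213, chromosome 10, 39612934 to 39655307), had 15.5, 15.4 and 20.1 CPM in diseased replicates 1, 2 and 3, against 17.9, 18.8 and 17.4 CPM in the un-diseased ones. The groups overlapped, and the log2 fold change was -0.09 (SE 0.14, 95% interval -0.41 to 0.24) with an adjusted p of 0.706 by edgeR. Traf5, whose product works with Act1 in stabilising mRNAs (gene 22033, chromosome 1, 191997203 to 192092599), had 3.08, 2.93 and 2.86 CPM in diseased and 3.65, 3.26 and 3.41 CPM in un-diseased replicates. Its groups did not overlap, as in 15.4% of all tested genes with diseased samples lower. The difference was small at a log2 fold change of -0.22 (SE 0.19, 95% interval -0.67 to 0.23, adjusted p = 0.474 by edgeR). Antisense genes overlap both Traf3ip2 and Traf5, and the pseudogene Gstp-ps lies within Traf5 on its strand, so reads of these pairs may be mixed.

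**Figure D3:**
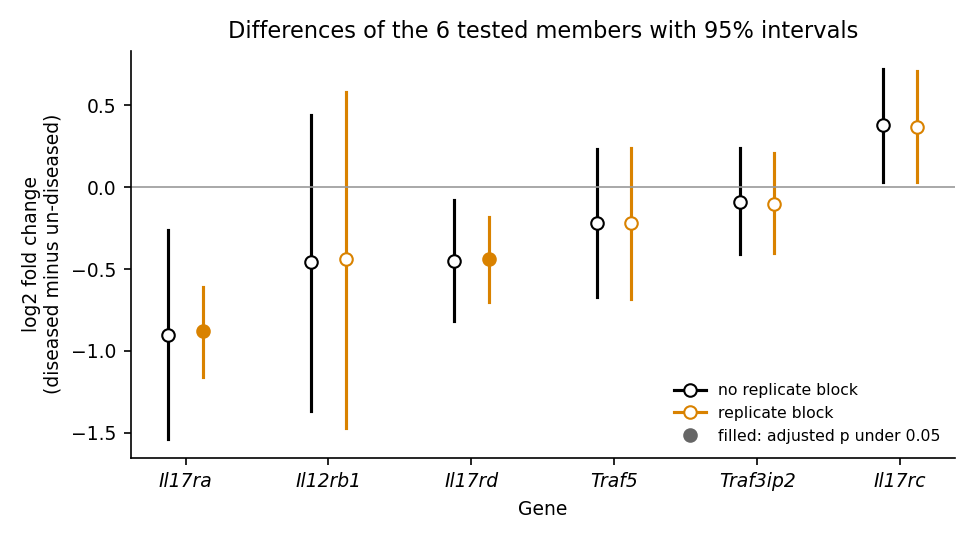
Log2 fold change, diseased minus un-diseased, of the 6 tested genes with its 95% interval, without (black) and with (orange) the replicate number as a block; filled points had an adjusted p below 0.05 by edgeR. Without the block no point is filled, and with it Il17ra (-0.88) and Il17rd (-0.44) are.

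On the IL-23 side, the cytokine and receptor chains were scarce. Il23a, the p19 chain of IL-23, had 3, 15 and 8 counts in diseased replicates 1, 2 and 3, against 2, 6 and 7 in the un-diseased ones, and fitted without the filter its log2 fold change was 0.70 (SE 0.74, adjusted p = 0.574 by edgeR). Il12rb1, the receptor chain shared by IL-12 and IL-23 (gene 16161, chromosome 8, 70808360 to 70823542), had 12, 7 and 7 counts in diseased and 9, 13 and 11 in un-diseased replicates. Its log2 fold change was -0.46, with an interval from -1.37 to 0.44 that leaves the direction unsettled (adjusted p = 0.45 by edgeR). Il23r, the other chain of the IL-23 receptor, had 0.196, 1.31 and 1.35 CPM in diseased and 0.417, 0.626 and 0.248 CPM in un-diseased replicates, with a log2 fold change of 1.11 (SE 0.70, adjusted p = 0.327 by edgeR). The 10 T cell markers together held at most 16 CPM, and the part of T cells in these low levels was not tested.

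The kinases and transcription factors that relay IL-23 signals are shared with many other cytokines. Of the 9 partner genes listed, 6 were tested and 0 passed by edgeR, by limma-voom 0 and by DESeq2 1, Stat3, where DESeq2 called 11.4% of all tested genes. At an unadjusted p below 0.05 there was 1 of 6, against 27.8% of all tested genes. With the replicate block 2 of 6 passed, both lower in diseased samples, where 13.3% of all tested genes were called lower. Stat3 had 317.3, 446.1 and 394.9 CPM in diseased replicates 1, 2 and 3, against 494.7, 595.7 and 591.6 CPM in the un-diseased ones. Its groups did not overlap, as in 15.4% of all tested genes with diseased samples lower (log2 fold change -0.54, SE 0.16, adjusted p = 0.103 by edgeR and 0.0137 with the block). The receptor-bound kinase gene Jak2 had 187.8 ± 65 CPM in diseased and 286.7 ± 70.5 CPM in un-diseased fibroblasts (n = 3 each, SD; log2 fold change -0.61, adjusted p = 0.215 by edgeR and 0.00713 with the block). Both blocked calls were lost without replicate 3 of either group (adjusted p 0.0702 for Stat3 and 0.0539 for Jak2). Tyk2, the kinase bound to IL-12Rβ1, had 29 ± 3.56 CPM in diseased and 26.7 ± 4.13 CPM in un-diseased fibroblasts (n = 3 each, SD) and passed in neither fit (log2 fold change 0.12, adjusted p = 0.624 by edgeR). Stat4 had 0.489 ± 0.361 CPM in diseased and 0.596 ± 0.155 CPM in un-diseased fibroblasts and passed in neither fit. Il12a and Il12b, which encode the chains of IL-12, were under the filter.

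Of the 6 IL-17 family ligands, Il17b, Il17c, Il17f and Il25 were under the filter and 2 were tested, of which 0 passed by edgeR, DESeq2 or limma-voom, where edgeR called 3.73% of all tested genes. At an unadjusted p below 0.05 there was 1 of 2, against 27.8% of all tested genes. Il17d, the ligand with the highest level, had 3.42, 3.11 and 2.21 CPM in diseased replicates 1, 2 and 3, against 4.69, 4.45 and 5.76 CPM in the un-diseased ones. Its groups did not overlap, as in 15.4% of all tested genes with diseased samples lower. Its log2 fold change of -0.77 (SE 0.24) did not pass (adjusted p = 0.107 by edgeR) and was just called with the replicate block (adjusted p = 0.0499). That blocked call was lost with any 1 pair left out (0.0588 to 0.223). Il17a, the best-known product of IL-17-producing lymphocytes, had 0.293, 0.685 and 1.08 CPM in diseased and 0.261, 0.877 and 0.248 CPM in un-diseased replicates (log2 fold change 0.57, SE 0.66, adjusted p = 0.584 by edgeR).

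Downstream of the receptor, 0 of the 21 genes of signal relay and restraint were called higher in diseased samples by edgeR and 2 lower, Cebpd and Tbk1, and 19 did not pass. Over all tested genes 1.61% were called higher and 2.13% lower. At an unadjusted p below 0.05 there were 11 of the 21, against 27.8% of all tested genes. The log2 fold change was negative for 18 of the 21 and positive for 3. Cebpd, a transcription factor gene induced by IL-17, had 108.6, 113.3 and 157.1 CPM in diseased replicates 1, 2 and 3, against 205.7, 217.0 and 240.5 CPM in the un-diseased ones (log2 fold change -0.81, SE 0.16, adjusted p = 0.0435 by edgeR). Tbk1, a kinase known to phosphorylate Act1, had 33.5, 44 and 36.9 CPM in diseased and 52.4, 71.9 and 65.2 CPM in un-diseased replicates (log2 fold change -0.73, SE 0.15, adjusted p = 0.0471 by edgeR). In neither gene did the groups overlap, as in 7 of the 21 and 15.4% of all tested genes with diseased samples lower. Both were called in each blocked fit. Without the block both calls were lost with any of diseased replicates 1, 2 and 3 or of un-diseased replicates 2 and 3 left out (adjusted p 0.0763 to 0.122 for Cebpd and 0.0525 to 0.18 for Tbk1).

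With the replicate block 1 of the 21 was called higher and 9 lower, where 10.5% of all tested genes were called higher and 13.3% lower. The others lower were the NF-kB subunit genes Rela and Nfkb1, the inhibitors Nfkbia, Tnfaip3 and Zc3h12a, the RNA-binding protein gene Elavl1 and the deubiquitinase gene Usp25. Rela had 150.2 ± 35.3 CPM in diseased and 260.2 ± 19.2 CPM in un-diseased fibroblasts (n = 3 each, SD), a log2 fold change of -0.82 (SE 0.12, adjusted p = 0.00422 by edgeR with the block). Zc3h12a, which encodes an RNase known to degrade IL-17-induced mRNAs, had 93.3 ± 29.7 CPM in diseased and 153.7 ± 5.88 CPM in un-diseased samples, at -0.77 (SE 0.15, adjusted p = 0.0112 by edgeR with the block). Ikbke, the relative of Tbk1, was the 1 called higher, with 21.5, 18.3 and 22.4 CPM in diseased and 11.9, 15.8 and 13.8 CPM in un-diseased replicates (0.59, SE 0.15, adjusted p = 0.0243 by edgeR with the block). The blocked call of Ikbke was lost without replicate 1 (adjusted p = 0.104) or 3 (0.14) of either group, and that of Zc3h12a without replicate 3 (0.0735). Traf6, the main partner of Act1 in NF-kB activation, had 36.5 ± 6.04 CPM in diseased and 44.2 ± 3.45 CPM in un-diseased samples and passed in neither fit.

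Of 18 IL-17 response genes of stromal cells, 1 was called higher by edgeR and 0 lower, where 1.61% of all tested genes were called higher and 2.13% lower. Saa3, an acute-phase protein gene, had 458.7, 518.2 and 865.6 CPM in diseased replicates 1, 2 and 3, against 203.5, 242.9 and 296.7 CPM in the un-diseased ones (log2 fold change 1.31, SE 0.27, adjusted p = 0.0438 by edgeR). Every diseased sample lay above every un-diseased one, as in 2 of the 18 and 16.5% of all tested genes. Without the block the call was lost with any 1 sample left out (adjusted p 0.0543 to 0.132). With the replicate block Saa3 was called (adjusted p = 0.00167 by edgeR), and also in that fit with any 1 pair left out (0.000323 to 0.0184). The other 17 did not pass without the block. At an unadjusted p below 0.05 there were 5 of the 18, the same share as the 27.8% of all tested genes, and the median log2 fold change was -0.67.

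With the replicate block 3 of the 18 were called higher and 10 lower, where 10.5% of all tested genes were called higher and 13.3% lower. The cytokine gene Il6 had 74.1, 338.2 and 220.2 CPM in diseased replicates 1, 2 and 3, against 252.9, 844.5 and 907.0 CPM in the un-diseased ones. Replicate 1 was the lowest sample of its group in both, and within each pair the diseased sample was the lower. Its log2 fold change was -1.71 (SE 0.16, adjusted p = 0.00115 by edgeR with the block), against -1.66 (SE 0.62, adjusted p = 0.142) without it. Csf2, the gene of the growth factor GM-CSF, had 4.9 ± 3.74 CPM in diseased and 15.6 ± 9.83 CPM in un-diseased samples (-1.73 with the block, SE 0.16, adjusted p = 0.0012 by edgeR). The neutrophil chemokine gene Cxcl1 had 1436 ± 835.1 CPM in diseased and 3033 ± 1445 CPM in un-diseased samples (-1.14 with the block, SE 0.16, adjusted p = 0.00338 by edgeR). The others called lower with the block were Cxcl2, Ccl2, Ccl7, Csf3, Ptgs2, Steap4 and Lif. Higher beside Saa3 were the collagenase gene Mmp13 (0.64, SE 0.20, adjusted p = 0.0471 by edgeR with the block) and Tnfsf11, which encodes the osteoclast factor RANKL (0.73, SE 0.18, adjusted p = 0.0257 by edgeR with the block). The blocked call of Mmp13 was lost with any 1 pair left out (adjusted p 0.0714 to 0.19), and its log2 fold change was 0.34 without replicate 2 of either group. That of Tnfsf11 was lost without replicate 2, at 0.43 (adjusted p = 0.0794). Without the block and without diseased replicate 2, the log2 fold change was 0.21 for Mmp13 and 0.40 for Tnfsf11. Lcn2, a response gene encoding lipocalin-2, had 123.3 ± 12 CPM in diseased and 97.5 ± 6.43 CPM in un-diseased samples and passed in neither fit (adjusted p = 0.116 and, with the block, 0.0532 by edgeR). Many of these genes also respond to other inflammatory signals, and macrophages express several of them. Of the 11 tested macrophage markers 0 were called by edgeR and 11 were called higher with the block, while these 10 response genes were lower. Over all tested genes, 1.61% were called higher by edgeR and 10.5% with the block. The 7 tendon and enthesis markers summed to 8555 to 12085 CPM in diseased and 6160 to 7293 CPM in un-diseased samples. Of them 2 were called higher by edgeR, Thbs4 (log2 fold change 1.16, adjusted p = 0.0357) and Fmod (1.02, 0.0392), and 4 with the block. The shares of all tested genes called higher were again 1.61% and, with the block, 10.5%. The 6 epithelial markers summed to 1.13 to 2.86 CPM in diseased and 3.86 to 6.39 CPM in un-diseased samples. Of the 2 tested, Perp was called lower by edgeR (-1.58, adjusted p = 0.0368) and Krt5 only with the block. Over all tested genes, 2.13% were called lower by edgeR and 13.3% with the block. The part of these cell types in the differences of the response genes and of the receptor machinery was not tested.

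**Figure D4:**
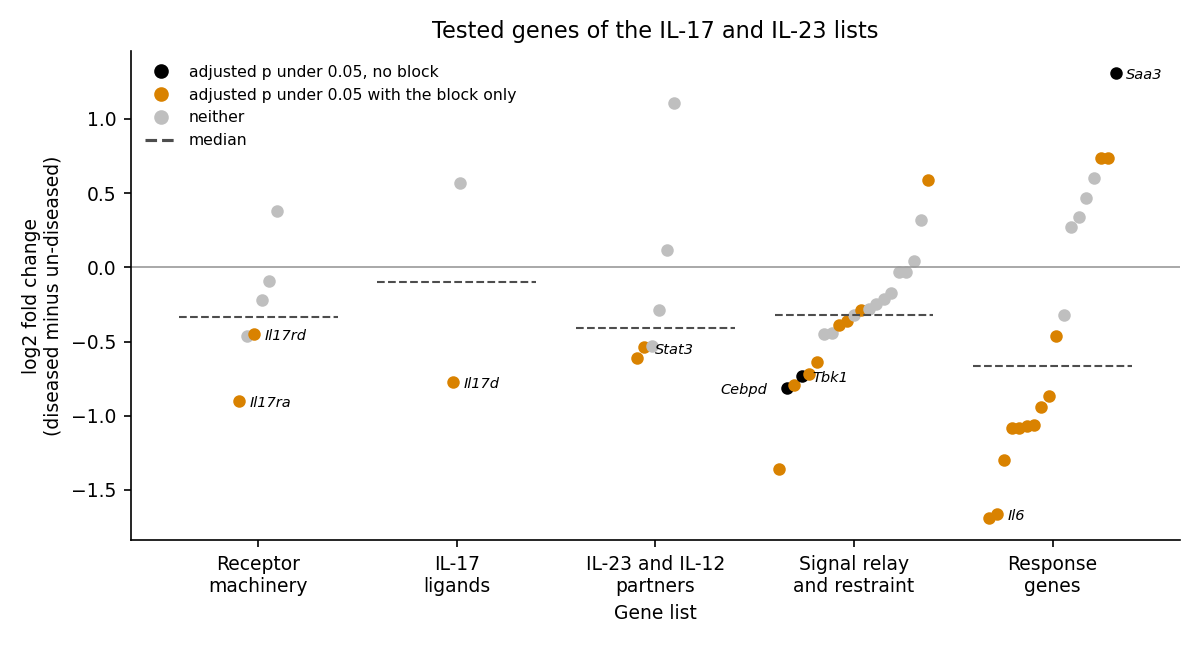
Log2 fold change, diseased minus un-diseased, of every tested gene of the 5 lists, each point 1 gene, with the list's median dashed; black points passed by edgeR without the block, orange points with the replicate block only. The medians are -0.33 for the receptor machinery, -0.10 for the ligands, -0.41 for the IL-23 partners, -0.32 for the relay genes and -0.67 for the response genes, against 0.02 over all tested genes.

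Among the 10339 genes compared, those whose log2 CPM followed Il17ra most closely over the 6 samples were Nfe2l2, which encodes the antioxidant regulator NRF2 (Pearson's r = 0.9997), the lamin B receptor gene Lbr (0.9996), the ribosome assembly GTPase gene Gtpbp4 (0.9982), the nuclear pore gene Ranbp2 (0.9980) and the proton pump gene Atp6v1h (0.9979). With 6 samples and so many genes compared, such values are a description of the pattern only, and all these genes were read in the same libraries. Nfe2l2 had 100.8, 160.1 and 122.9 CPM in diseased replicates 1, 2 and 3, against 151.5, 247.9 and 253.2 CPM in the un-diseased ones. Like Il17ra it had its lowest level of each group in replicate 1, and like Il17ra it passed with the block (adjusted p = 0.00518 by edgeR) and not without it (0.11).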

How the data were processed

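RNA of 6 fibroblast samples, extracted with TRIzol, was sequenced paired-end on the BGISEQ-500 platform, per the labels. The authors deposited 1 table of estimated counts per gene and sample. HISAT2 2.0.4, RSEM 1.3.1 and DESeq2 1.4.5 with the mouse build GRCm38 are named, per the submitters' processing notes, which give no role. Per the file headers, the deposited table also holds the authors' log2 ratio (un-diseased divided by diseased), p-value and q-value. Estimated counts were rounded to whole numbers, which altered 9.6% of them. Groups follow the treatment label.

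Genes were kept with filterByExpr (least count 10, 13264 of 17419 genes), scaled with TMM and tested with edgeR 4.0.16 in R 4.3.3, all 6 samples in 1 quasi-likelihood fit, with Benjamini-Hochberg adjustment over all tested genes and a threshold of 0.05. SE is the log2 fold change divided by the root of the F statistic. Intervals are 95% and not adjusted. Log2 CPM used a prior count of 2. DESeq2 1.42.0 and limma 3.58.1 were alternatives, and the steps were tested on simulated data. Exon lengths are the union of GENCODE M21 basic exons, and positions are RefSeq's GRCm38.

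The replicate numbers in the titles were taken to pair the samples, though the labels do not say that same-numbered samples belong together. The pairing rests on these numbers and on the deviations from the group means, which correlated within each number (0.487, 0.578 and 0.276 for replicates 1, 2 and 3, over 13264 genes). Between differing numbers the correlations ran from -0.531 to 0.137, the latter for diseased replicate 3 and un-diseased replicate 1. They come from the same values as the blocked tests, so they are not separate evidence of a pairing. No 2 samples of a group agreed within sampling noise (chi-square per gene 25.7 to 62.1). The members and lists were chosen with earlier results of these data known. Named were all members, the called members of each other list (up to 5, or else the one with the highest CPM), and the 5 genes most like the most abundant receptor subunit among genes averaging a log2 CPM of 2 or more. Il6, Rela, Nfkb1, Jak2, Il17a, Il23r, Zc3h12a, Ikbke, Traf6, Cxcl1, Csf2, Mmp13, Tnfsf11, Lcn2, Tyk2, Stat4, Thbs4, Fmod, Perp and Krt5 were named after their values were seen. So were the other genes given by name as called only with the block. Protein sequences were not used here. The result of 1 gene of the IL-23 partner list is not reported here.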

Additional observations from a re-analysis of the deposited data

How the results depend on the processing

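Over all genes, 213 were called higher and 282 lower (495), and 417 and 288 with upper-quartile factors, which moved the median log2 fold change of all tested genes to 0.10 and that of Traf3ip2 to -0.00. The total was 1517 by DESeq2, 4 at a threshold of 0.01, 5 to 1075 with 1 sample left out, and 3167 with the replicate block, or 2569, 2083 and 1009 in that fit without replicate 1, 2 or 3 of either group (these last 3 fits were chosen after seeing the data). Among the fits with 1 sample left out and no block, the fewest calls came without diseased replicate 3 (5) and un-diseased replicate 2 (10), and the most without un-diseased replicate 1 (1075).

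Calls among the members were 0, but 1 by DESeq2, 2 with the replicate block, 2, 1 and 1 in that fit without replicate 1, 2 or 3, and 0 to 1 with 1 sample left out. For the ligands they were 0, and 1 with the block. For the IL-23 partners they were 0, but 1 by DESeq2, 2 with the block and 2 and 2 in that fit without replicate 1 or 2. For the relay genes they were 2, but 4 with upper-quartile factors, 5 by DESeq2, 0 at a threshold of 0.01, 10 with the block, 7, 9 and 4 in that fit without replicate 1, 2 or 3, and 0 to 3 with 1 sample left out. For the response genes they were 1, but 0 at a threshold of 0.01, 13 with the block, 10, 11 and 9 in that fit without replicate 1, 2 or 3, and 0 with any 1 sample left out.

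Among the values of single genes 1 changed sign: Il17a was at -0.17 with the replicate block without replicate 3. In the alternatives that tested them, Il17ra ranged from -1.14 to -0.73, Il17rd from -0.56 to -0.29 and Il17rc from 0.25 to 0.58. Set against the fit of all 6 samples without the block, another 78 values passed where that fit's value had not, and 19 no longer passed. The cause was not tested. Depth limits Il17rb, Il17re and Il23a, which had at most 15 counts in any sample.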
